A study of Mus musculus with 6 samples.

Results

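Nuclear genes for the subunits of oxidative phosphorylation were examined in fibroblast-lineage cells from pressure-overloaded mouse hearts. Members were chosen by gene symbol alone (*Ndufa*, *Ndufb*, *Ndufc*, *Ndufs* and *Ndufv* genes, *Sdha* to *Sdhd*, *Uqcr* genes, *Cyc1*, *Cycs*, *Cox4* to *Cox8* genes and *Atp5* genes). Of the 28987 genes in the table, 88 matched, and 86 remained after 1 gene of a pseudogene class (*Atp5l2*) and 1 with a pseudogene symbol (*Atp5l-ps1*) were left out. Of these, 35 belong to complex I, 4 to complex II, 9 to complex III, 20 to complex IV (with *Ndufa4* and *Ndufa4l2*) and 17 to complex V, and 1 is cytochrome c (*Cycs*). The symbol rule also takes in *Atp5s* and *Atp5sl*, which are not structural subunits of the enzyme. A level was high enough to be tested at 83 members, and of the other 3, *Atp5g2* and *Cox8c* were listed at 0 in every library and *Cox7b2* at no more than 0.50 on the deposited log2 scale.

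Oxidative phosphorylation passes electrons from NADH through complex I, or from succinate through complex II, to ubiquinone, then through complex III, cytochrome c and complex IV to oxygen. Complexes I, III and IV pump protons across the inner mitochondrial membrane, and complex V (ATP synthase) uses the gradient to make ATP. All complexes except complex II combine subunits from nuclear genes with subunits from mitochondrial DNA, and several nuclear subunits exist as isoforms with heart and skeletal muscle forms that are abundant in cardiomyocytes.

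All mice, controls included, carried a MerCreMer cDNA knocked into the *Postn* locus and a Cre-dependent EGFP reporter at Rosa26, received tamoxifen (100 mg/kg by injection and chow at 40 mg/kg, per the labels; the study's methods give other doses) and underwent transverse aortic constriction (TAC) at 8 to 10 weeks of age. The 3 libraries labelled Hsp47-deleted came from mice that also carried loxP-flanked *Hsp47* (*Serpinh1*), and the 3 control libraries from mice without that recombination. EGFP+ cells, those in which *Postn*-driven Cre had been active, were sorted from the ventricles 4 weeks after TAC. No sham-operated mice or EGFP− cells were analysed here, and deletion depends on *Postn* expression in each cell.

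The labels place control replicates 3 and 4 in one sequencing run (called the first run) and control replicate 2 with Hsp47-deleted replicates 1, 2 and 3 in another (the second run), so control 2 alone separates run from label. The deposited values are log2(value + 1) of a linear quantity that is not named, so levels are compared here within a gene only, and the depth of each library is unknown. Fibroblast markers were present in every library (11 of 11 tested, none at 0, summed linear values from 10112 in control 4 to 21600.0 in deleted 2). *Serpinh1*, the targeted gene, was at 6.28, 6.10 and 7.60 in controls 3, 4 and 2 and at 6.87, 6.67 and 6.66 in the libraries labelled Hsp47-deleted (difference 0.07, SE 0.43, limma, BH-adjusted p = 0.947). Within the second run it was lower in all 3 of the latter than in control 2 (-0.87, SE 0.31, limma, unadjusted p = 0.026, BH-adjusted p = 0.667 with run in the fit), and a gene-level value does not separate the deleted exons from the rest. The labels are therefore used as labels in what follows. The p-values measure only the spread between these libraries.

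Before the levels, short stretches of promoter are shown. The nuclear genes of this system are known to share elements for the activators NRF1, GABP (an ETS factor) and YY1. A promoter window (250 bases before to 50 after the start, RefSeq, GRCm38.p6) was matched for 70 members, with 76 windows in all. The other members, *Cox4i1*, *Cox4i2*, *Sdhc* and *Cyc1* among them, were not matched to a window in the table used here. CGCATGCG, the centre of the NRF1 element and its own reverse complement, was found in 13.2% of the members' windows and in 1.87% of all 32851 windows. CCGGAAG (ETS, either strand) was found in 21.1% of the members' windows and in 8.86% of all, and AAGATGG (YY1, either strand) in 17.1% and 6.34%. None of the 3 motifs contains another. The median GC content was 57.5% in the members' windows and 52.7% in all windows. These letters are a description of the windows and not of binding. In the following stretches, each 30 bases long, 5′ to 3′ on the gene's own strand and wholly before the start, capitals mark the motif.
*Cox6a1*, NRF1, chr5:115349101-115349130 (−): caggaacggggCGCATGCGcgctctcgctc
*Cycs*, NRF1, chr6:50566612-50566641 (−): ccatgctagctCGCATGCGcgcgcacaaac
*Atp5g2*, NRF1, chr15:102671070-102671099 (−): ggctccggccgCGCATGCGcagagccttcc
*Atp5j*, NRF1, chr16:84835105-84835134 (−): aggccagaataCGCATGCGtacagtgcagt
*Atp5j*, YY1, chr16:84835046-84835075 (−): aaagtgtaggaAAGATGGcggagtcttagc
*Atp5e*, ETS, chr2:174464185-174464214 (−): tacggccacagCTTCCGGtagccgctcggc
*Sdhd*, ETS, chr9:50603877-50603906 (−): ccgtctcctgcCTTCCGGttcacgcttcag
The genes with an NRF1 stretch wholly before the start did not all share 1 pattern of levels. *Cox6a1*, *Atp5j*, *Atp5k* and *Ndufa11* were higher in every second-run library than in both first-run controls. *Cycs* overlapped between the runs, and *Atp5g2* was listed at 0 throughout.

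As a group the nuclear subunit genes lay higher in the 3 libraries labelled Hsp47-deleted than in the 3 controls, with the first-run controls low and control 2 close to the other label. The median log2 difference (labelled Hsp47-deleted minus control) was 1.01 over the 83 tested members and 0.35 over all 15109 tested genes. Among the members 77 were higher and 6 lower, beside 11250 higher and 3859 lower among all tested genes. The member median was 0.60 without control 4 and 1.51 without control 2, with all tested genes at 0.39 in both cases. No member passed a BH-adjusted p of 0.05 (limma; smallest adjusted p = 0.274), where 0.245% of all tested genes did. At an unadjusted p under 0.05, 17 members were higher and 0 lower, beside 14.5% of all tested genes higher and 0.755% lower. The libraries of the 2 labels did not overlap at 10 members, all higher in those labelled Hsp47-deleted, beside 18.3% of all tested genes in that direction and 1.5% in the other. The members' shares (17 and 10 of 83) were near that background, so neither count is a result about the members. When libraries were centred on their medians, 3 members were higher and 1 lower at that p (4.73% and 3.48% of all tested genes), and the member median was 0.60 with all tested genes at -0.06. Quantile normalization likewise gave 3 and 1 (4.57% and 3.81%), and rescaling without the mitochondrially encoded genes gave 2 and 1 (4.22% and 3.77%). The count of 17 also fell to 3, 4, 5, 5 and 6 when control 3, control 4, or deleted 1, 2 or 3 was left out, beside 6.04%, 8.82%, 8.47%, 7.1% and 12.7% of all tested genes in either direction.

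Control 2 decided the picture. It lay above both first-run controls at 75 of 83 members (46.4% of all tested genes) and inside the range of the libraries labelled Hsp47-deleted at 46 (41.6%). It lay above all 3 of them at 25 members (11.7% of all tested genes) and below all 3 at 12 (46.7%). All 4 second-run libraries were above both first-run controls at 69 members (35.0% of all tested genes), and all 4 were below at 1, *Atp5b* (9.92%). The spread among controls followed from this: the median SD was 1.03 for the members in the controls and 0.35 in the libraries labelled Hsp47-deleted, against 0.53 and 0.36 over all tested genes. Without control 2, when run and label coincide, 63 members had an unadjusted p under 0.05, 48 passed adjustment (limma) and 71 did not overlap, beside 35.1%, 18.3% and 52.0% of all tested genes.

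**Figure D1:**
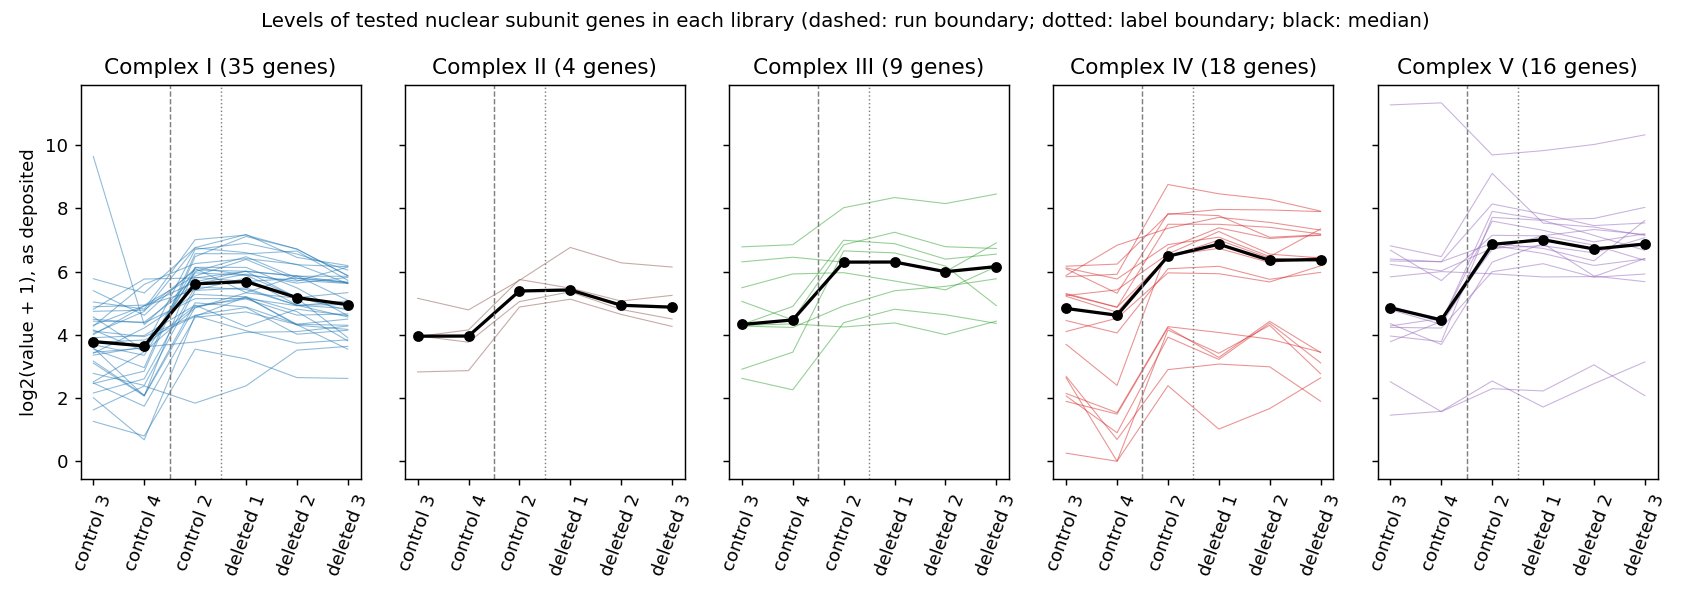
Levels of the tested members on the deposited log2(value + 1) scale (y axis) in each library (x axis), with 1 panel per complex, a thin line per gene and the panel's median in black. Each median is higher in control 2 and in the libraries labelled Hsp47-deleted than in controls 3 and 4, and the complex I medians are 3.79 and 3.65 in the first run against 5.61 in control 2.

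A fit with both label and run gave each member a run difference, which equals control 2 minus the mean of controls 3 and 4 and so rests on 1 library of the second run. Its test takes control 2 to vary as the replicated libraries do, and a property of control 2 alone cannot be told apart from the run. Its median was 1.70 for the members and 0.11 for all tested genes. In the second run 77 members were higher, beside 8196 of the 15109 tested genes. At an unadjusted p under 0.05, 55 members were higher (17.7% of all tested genes), and after adjustment 29 were higher and 1 was lower, beside 3.18% and 0.768% of all tested genes. The median stayed between 1.45 and 1.73 under the 3 rescalings, with 75 to 77 members higher. Differences reached 3.84 at *Atp5e*, the epsilon subunit of the ATP synthase central stalk, and 11 members differed by 3 or more. The 2 first-run controls differed from each other by a median of 0.40.

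With run in the fit, the label difference equals the mean of the 3 libraries labelled Hsp47-deleted minus control 2. Its median was -0.16 for the members and 0.29 for all tested genes. Among the members 27 were higher and 56 lower, beside 10850 higher and 4234 lower among all tested genes. No member passed adjustment (limma; 0.331% of all tested genes did). At an unadjusted p under 0.05, 0 members were higher and 1 was lower, *Atp5j*, beside 5.46% and 1.27% of all tested genes. The difference was under 1 in size at 81 of 83 members, the exceptions being *Atp5j* (-1.74) and *Ndufa12* (1.34). Run and label cannot be told apart beyond what control 2 gives.

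**Figure D2:**
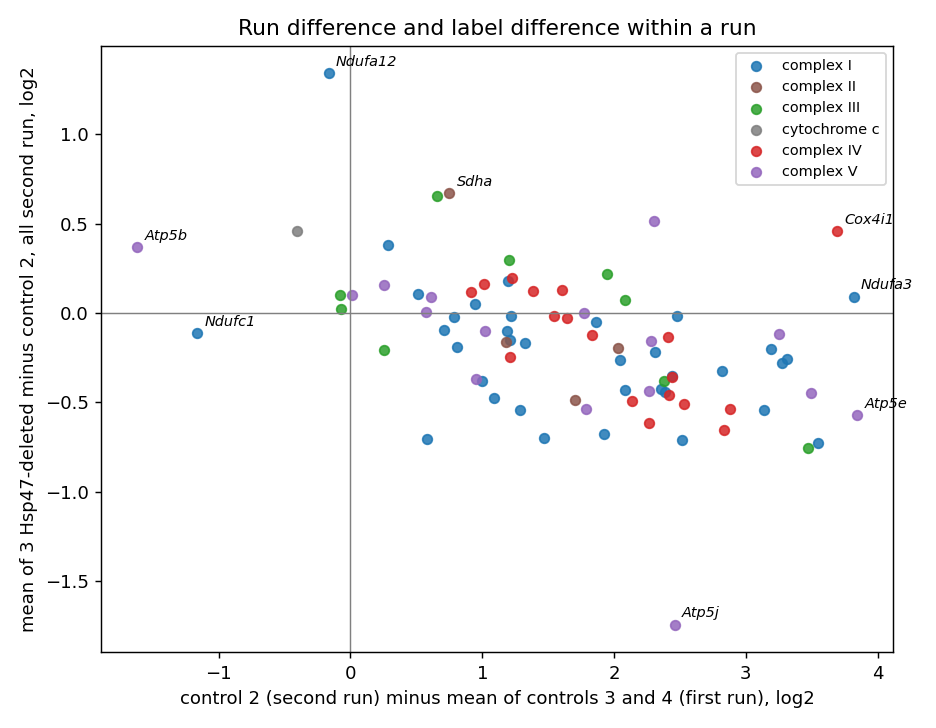
Each point is a tested member, with control 2 minus the mean of the first-run controls on the x axis and the mean of the 3 libraries labelled Hsp47-deleted minus control 2 on the y axis, both log2. Points spread from -1.62 to 3.84 across and mostly lie within 1 of zero in height, and since control 2 enters both axes with opposite sign, a downward slope between them carries no information.

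Complex I takes electrons from NADH. Its 7 nuclear core subunits had a median run difference of 1.22 and its 28 supernumerary subunits one of 1.89. All 4 second-run libraries lay above the first run at 6 and 24 of these subunits, beside 35.0% of all tested genes. *Ndufa3*, a small membrane-arm subunit, was at 2.46 and 2.85 in controls 3 and 4, at 6.47 in control 2 and at 7.11, 6.72 and 5.87 in the libraries labelled Hsp47-deleted. Control 2 lay inside the range of the latter, and the run difference was 3.82 (SE 0.54, limma, BH-adjusted p = 0.018) while the label difference within the second run was 0.09. *Ndufb11*, another membrane-arm subunit, was at 3.69 and 3.35 in the first run and between 5.67 and 6.47 in all 4 second-run libraries (run difference 2.48, limma, BH-adjusted p = 0.035). *Ndufb10* was at 4.43, 4.40 and 5.61 in controls 3, 4 and 2 and at 5.92, 5.64 and 5.82 in the others. These groups did not overlap, but the gap to control 2 was 0.023 (label difference 0.98, SE 0.39, limma, BH-adjusted p = 0.313). *Ndufc1*, named here after its values were seen, stood apart in 1 library: it was at 9.64 in control 3 and between 4.32 and 5.82 in the other 5.

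Complex II, succinate dehydrogenase, is shared with the citric acid cycle and has only nuclear subunits. *Sdha*, the flavoprotein, at chromosome 13, 74322254 to 74350280 (minus strand, GENCODE M21, GRCm38), was at 5.16, 4.79 and 5.72 in controls 3, 4 and 2 and at 6.77, 6.28 and 6.14 in the libraries labelled Hsp47-deleted. It did not overlap between labels (difference 1.17, SE 0.35, limma, BH-adjusted p = 0.281), and within the second run the difference was 0.67 (BH-adjusted p = 0.732 with run in the fit). Control 2 lay 0.75 above the mean of the first-run controls, so *Sdha* also differed between the runs by about as much. None of the 4 subunits passed adjustment for run (limma; BH-adjusted p from 0.053 to 0.273). *Sdhb*, the iron-sulfur subunit, was at 2.83 and 2.87 in the first run, 4.88 in control 2 and 5.13, 4.65 and 4.27 in the others. The membrane anchors *Sdhc* and *Sdhd* had run differences of 1.18 and 1.70, and control 2 was below deleted 1 alone at *Sdhc* and above all 3 at *Sdhd*.

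Complex III passes electrons from ubiquinol to cytochrome c. *Cyc1*, its cytochrome c1, at chromosome 15, 76343523 to 76346260 (plus strand), had the smallest p of all members. It was at 4.28, 4.23 and 4.92 in controls 3, 4 and 2 and at 5.39, 5.53 and 5.77 in the libraries labelled Hsp47-deleted. Every one of the latter was above every control (difference 1.09, SE 0.31, limma, BH-adjusted p = 0.274), and the difference within the second run was 0.65 (SE 0.34, BH-adjusted p = 0.732 with run in the fit). *Uqcrh*, the hinge protein, was at 6.78, 6.85 and 8.02 against 8.34, 8.15 and 8.45, without overlap but with most of the difference between the runs (1.20, against 0.29 within the second run). The core protein gene *Uqcrc1* and the small subunit gene *Uqcr10* had run differences of 1.94 and 2.08 (limma, BH-adjusted p = 0.048 and 0.043). *Uqcrfs1*, the Rieske protein, *Uqcrb* and *Uqcrc2* had run differences of -0.07, -0.08 and 0.26, so that not all subunits of 1 complex differed alike. *Cycs*, the electron carrier between complexes III and IV, was at 4.55, 4.59 and 4.16 in controls 3, 4 and 2 and at 4.56, 4.37 and 4.93 in the others, with the groups overlapping.

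Complex IV, cytochrome c oxidase, had a median run difference of 1.98 over its 18 tested members. All 18 were higher in the second run, beside 8196 of the 15109 tested genes. *Cox4i1*, the ubiquitous form of subunit 4, at chromosome 8, 120668222 to 120674207 (plus strand), gave the largest label difference of any member. It was at 3.70 and 2.40 in controls 3 and 4, at 6.74 in control 2 and at 7.38, 7.05 and 7.15 in the libraries labelled Hsp47-deleted. The labels did not overlap (difference 2.92, SE 0.96, limma, BH-adjusted p = 0.283), but control 2 stood far above the other controls (run difference 3.69, SE 0.54, BH-adjusted p = 0.020), which left 0.46 within the second run. *Cox8a* was at 6.17, 6.24 and 7.81 in controls 3, 4 and 2 and at 7.97, 7.95 and 7.90 in the others. The labels were again separate, with 0.13 within the second run against 1.60 between the runs. *Cox6a1* and *Cox6b1*, the general forms of subunits 6A and 6B, had run differences of 2.88 and 2.41 (limma, BH-adjusted p = 0.012 and 0.021). *Cox7a2l*, which takes part in respiratory supercomplexes, and *Ndufa4* had label differences of 1.05 and 1.01 with unadjusted p-values of 0.049 and 0.048 (limma; BH-adjusted p = 0.326 and 0.324).

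Complex V held both extremes of the run difference. *Atp5b*, the catalytic beta subunit, at chromosome 10, 128083273 to 128090391 (plus strand), was the only member past adjustment for a lower level in control 2 than in the first run. It was at 11.28 and 11.34 in controls 3 and 4, 9.69 in control 2 and 9.83, 10.02 and 10.33 in the libraries labelled Hsp47-deleted (run difference -1.62, SE 0.32, limma, BH-adjusted p = 0.043). Its partner in the head, *Atp5a1*, was at 6.23 and 6.03 in controls 3 and 4 and at 6.74 in control 2. That run difference of 0.61 (SE 0.36) did not pass adjustment (limma). *Atp5d*, the delta subunit of the central stalk, was at 4.28, 4.52 and 6.70 in controls 3, 4 and 2 and at 7.14, 7.33 and 7.17 in the others. It did not overlap between labels (difference 2.05, SE 0.61, limma, BH-adjusted p = 0.281), with a difference of 0.51 within the second run. *Atp5j*, coupling factor 6 of the peripheral stalk and the gene whose promoter letters were shown for both NRF1 and YY1, was at 6.82 and 6.48 in the first run, 9.11 in control 2 and 7.54, 7.41 and 7.14 in the others. Control 2 was the highest library, by 1.57 on the log2 scale, and the label difference within the second run was -1.74 (SE 0.33, limma, unadjusted p = 0.001, BH-adjusted p = 0.169). *Atp5j2*, a membrane subunit, was at 4.24 and 4.22 in the first run and between 5.82 and 6.25 in all 4 libraries of the second, and *Atp5l* had a run difference of 3.49 (limma, BH-adjusted p = 0.009), which was 1.47 with its near-identical copies summed.

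Isoform pairs were compared as log2 ratios within a library, with an exact two-sided permutation test that cannot go below p = 0.1 for 3 against 3. The ratio of *Cox4i2*, the hypoxia-responsive form of subunit 4, to *Cox4i1* was -1.01, -1.71 and -3.84 in controls 3, 4 and 2 and -4.31, -4.06 and -5.25 in the libraries labelled Hsp47-deleted. All of the latter were lower than every control (difference -2.35, exact permutation p = 0.1, 0.7 after BH adjustment over 7 pairs), with -0.70 within the second run. *Cox4i2* itself was at 2.69, 0.69 and 2.90 against 3.07, 2.99 and 1.90, with the groups overlapping, so that the ratio followed *Cox4i1*. The c-ring genes *Atp5g1* and *Atp5g3* encode the same mature protein with different import sequences, and their ratio was -1.42, -1.91 and 1.01 in the controls and 0.91, 1.34 and 0.41 in the others. It therefore split by run: *Atp5g1* was at 4.91 and 4.40 in the first run and between 7.64 and 8.03 in the second, while *Atp5g3* ranged from 6.31 to 7.62 over all 6 libraries, with deleted 2 beside control 3 at 6.34 (difference of the ratio 1.66, exact permutation p = 0.3, -0.12 within the second run). The other 5 pairs gave exact permutation p-values from 0.4 to 0.9. The muscle forms *Cox6a2*, *Cox7a1* and *Cox8b* were low throughout, with summed linear values of 11.1, 2.68 and 48.7 in controls 3, 4 and 2 and 26.8, 58.9 and 23.3 in the others, and *Cox8b* was listed at 0 in control 4. *Cox6b2*, the testis form, was also at 0 there.

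*Ndufa12*, a complex I accessory subunit at chromosome 10, 94198720 to 94221443 (plus strand), differed from the other members. It was at 1.63, 2.38 and 1.84 in controls 3, 4 and 2 and at 2.39, 3.52 and 3.63 in the libraries labelled Hsp47-deleted. The labels did not overlap, by a gap of 0.0042 (difference 1.23, SE 0.43, limma, BH-adjusted p = 0.294). Within the second run the difference was 1.34 (limma, BH-adjusted p = 0.732 with run in the fit). A processed pseudogene, *Gm15920*, lies at chromosome 5, 130188395 to 130188796 (plus strand), and 400 of its 402 bases (99.5%) are identical to bases 127 to 528 of the 1110-base *Ndufa12* transcript. The 2 differences, counted from 1 at the 5′ end of *Gm15920* with the *Ndufa12* base first, are A99G and T378C, in capitals here.
*Ndufa12*, bases 210 to 239: agaagacaaatatggAaataaatactacga
*Gm15920*, bases 84 to 113: agaagacaaatatggGaataaatactacga
*Ndufa12*, bases 489 to 518: gattcatgaatgggtTccaccttcgacacc
*Gm15920*, bases 363 to 392: gattcatgaatgggtCccaccttcgacacc
In linear units *Gm15920* was at 53.9, 56.2 and 42.4 in controls 3, 4 and 2 and at 4.83, 2.38 and 3.62 in the libraries labelled Hsp47-deleted. It differed by label in both fits (difference -3.52, SE 0.32, limma, BH-adjusted p = 0.00684, and -3.27 with run in the fit, BH-adjusted p = 0.0275). Summed, the 2 genes were at 56.0, 60.4 and 44.9 against 9.06, 12.8 and 15.0, so that the label difference of *Ndufa12* with its copy was -2.06 (SE 0.31, limma, BH-adjusted p = 0.0582), opposite in sign to *Ndufa12* alone. How reads were divided between the pair is unknown, and the level of *Ndufa12* is uncertain for that reason. *Rabgef1*, the gene on the same strand whose span holds *Gm15920*, was at 4.74, 4.98 and 4.50 in controls 3, 4 and 2 and at 4.71, 5.52 and 5.26 in the others, with the groups overlapping.

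**Figure D3:**
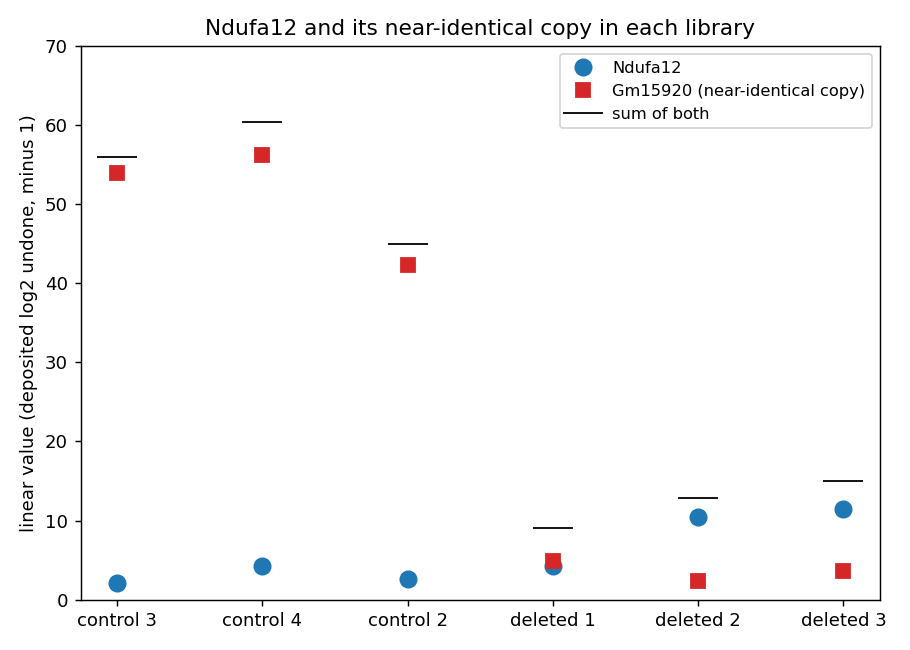
Linear values (y axis, the deposited log2 undone) of *Ndufa12*, of its near-identical copy *Gm15920* and of their sum in each library (x axis). The copy sits between 42.4 and 56.2 in the 3 controls and between 2.38 and 4.83 in the libraries labelled Hsp47-deleted, while *Ndufa12* is the higher of the pair only in deleted 2 and deleted 3.

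In all, 15 members had near-identical copies in the table (24 rows), sought at a minimum identity of 95% along at least 80% of the copy's length. Besides *Ndufa12*, the sign changed at *Cycs*, whose label difference was 0.18 alone and -0.25 with its copy *Gm10053*. *Atp5l* kept its sign, but summed with its 5 copies its label difference fell from 1.88 to 0.71 and control 2 stood 1.47 above the first-run controls. *Ndufb4* and its copy *Gm3244* both lay higher in control 2 than in the first-run controls: the copy was at 25.8 and 23.8 linear units in the first run and at 123.3 in control 2, with 120.8, 122.3 and 60.5 in the libraries labelled Hsp47-deleted.

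The members' run difference was larger in transcripts of higher GC content. Over the 83 members, Pearson's r of the run difference with transcript GC content was 0.495 (Spearman's rho 0.511), and over 14783 tested genes it was 0.302 (0.325), a description across genes that share the same 3 control libraries. The members exceeded all tested genes in each bin of GC content that held any: between 45% and 50% GC, the median was 1.05 for 24 members and -0.10 for all genes, and between 50% and 55% it was 2.08 for 29 members and 0.21 for all. Members are short, with a median transcript length of 627 bases against 1274, and within 500 to 700 bases the medians were 1.92 and 0.26. For the label difference, removing the trends of GC content and length from each library gave a member median of 0.83 and 0.41 for all tested genes. Without that removal the label medians were 1.01 and 0.35. The run difference was not recomputed after the removal. The part of GC content in the run difference was not tested.

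**Figure D4:**
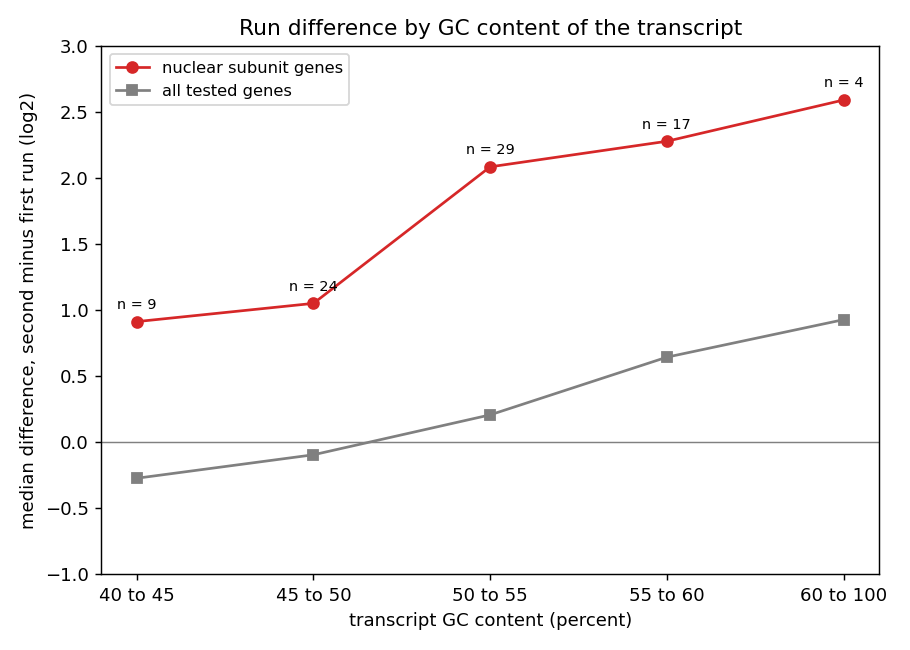
Median difference of control 2 from the first-run controls (y axis, log2) by transcript GC content (x axis, bins in percent) for the members (red, with their number) and for all tested genes (grey). The members lie above all tested genes in each of the 5 bins, and both rise with GC content, with 9, 17 and 4 members in the first, the fourth and the fifth bin.

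Summed markers of cardiomyocytes, endothelial cells, leukocytes and fibroblasts were higher in each second-run library than in both first-run controls. Summed erythroid and mural markers were not. The summed linear value of 16 cardiomyocyte genes (14 tested) was 124.4 and 68.4 in the first-run controls, 346.1 in control 2 and between 207.9 and 345.7 for the other label. Their median run difference was 1.69, and 13 of the 14 were higher in the second run, beside 8196 of the 15109 tested genes. *Myl3* was at 0 in control 4 and *Nppb* in controls 3 and 4. Endothelial genes summed to 147.5, 92.6 and 247.8 in controls 3, 4 and 2 and to 156.6 to 234.7 in the others, with a median run difference of 1.47, leukocyte genes to 38.4, 82.1 and 91.2 against 99.5 to 129.7 (1.23), and erythroid genes to 82.4, 13.3 and 341.9 against 81.1 to 136.3 (2.96). Mural genes summed to 161.1 to 283.3 in the controls and to 103.7 to 160.3 in the others (0.14). Fibroblast genes summed to 10497 and 10112 in controls 3 and 4, 16246 in control 2 and 17648 to 21600 in the others (0.43). In sorted bulk samples, fewer cells of a type and less RNA per cell cannot be told apart, and the part of other cells in the members' levels was not tested.

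Subunits outside the symbol rule also lay higher in the second run, though none passed adjustment for run (limma). All 4 that were tested were higher in every second-run library than in both first-run controls, beside 35.0% of all tested genes. Among the 4 were *Ndufab1*, the mitochondrial acyl carrier protein (6.19 and 6.27 in the first run, 6.99 in control 2 and 6.95, 6.86 and 7.06 in the others) and *2010107E04Rik* (run difference 1.47). Other mitochondrial genes of nuclear origin differed less between the runs: the median was 0.38 over 42 assembly factors, 0.44 over 18 genes of the citric acid cycle and pyruvate dehydrogenase, 0.31 over 22 genes of import, membrane and chaperone function, and -0.17 over 15 regulators. None of these genes passed adjustment for label (limma). Their label medians were 0.41, 0.40, 0.47 and 0.20, near the 0.35 of all tested genes.

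Single genes of these lists gave the smallest p-values for label. *Ndufaf6*, a complex I assembly factor, was at 1.30, 1.45 and 1.41 in controls 3, 4 and 2 and at 2.28, 3.86 and 3.63 in the libraries labelled Hsp47-deleted, without overlap and with a difference of 1.84 within the second run (label difference 1.86, SE 0.46, limma, BH-adjusted p = 0.225). *Pet100*, a complex IV assembly factor, had a label difference of 1.51 and a run difference of 2.08. *Tfam*, which packages mitochondrial DNA, was at 2.97, 3.10 and 2.87 against 3.86, 3.56 and 4.78, and *Tfb2m*, a mitochondrial transcription factor, at 4.41, 5.02 and 4.41 against 5.28, 5.39 and 6.53. Neither overlapped between labels, and both differed within the second run by 1.20 and 1.33 (limma, BH-adjusted p for label = 0.291 and 0.301). Among genes for the activators whose letters were searched in the promoters, *Nrf1* had a run difference of -0.01, *Gabpa* of -0.96 and *Yy1* of -1.30. These values rest on control 2 alone in the second run. The activity of these factors was not measured, and their part in the members' levels was not tested. *Mdh2* of the citric acid cycle had a label difference of 1.34, and *Mfn2* and *Phb*, of mitochondrial fusion and the inner membrane, of 1.19 and 1.01, with BH-adjusted p-values (limma) of 0.284, 0.281 and 0.304.

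The mitochondrially encoded subunits, which join the same complexes, lay lower in the libraries labelled Hsp47-deleted, both over all controls and within the second run. Of the summed linear values, the 86 nuclear members held 0.784%, 0.614% and 0.968% in controls 3, 4 and 2 against 0.994%, 0.831% and 0.806%. In controls 3 and 4 *Atp5b* alone made up 2478 of 5411 and 2592 of 4665 linear units of the members, and *Ndufc1* 797 in control 3. The mitochondrially encoded subunits held 29.4%, 23.5% and 28.0% in controls 3, 4 and 2. In the libraries labelled Hsp47-deleted they held 7.17%, 7.23% and 4.70%. Both shares are parts of 1 total, so each depends on the other. In control 2 the mitochondrial share includes *mt-Atp8*, far higher there than in any other library, and so rests in part on 1 gene. The 13 genes had a median label difference of -1.73 and of -1.62 with run in the fit. In the latter fit each was lower at an unadjusted p under 0.05 (limma), beside 1.27% of all tested genes. Between labels 12 were lower without overlap, beside 1.5% of all tested genes, the exception being *mt-Nd3*. The 13 genes share the same libraries and are not independent tests. Their median run difference was -0.26, and 2 passed adjustment for run in opposite directions (limma): *mt-Atp8* (4.80, BH-adjusted p = 0.00367) and *mt-Nd4l* (-2.24, BH-adjusted p = 0.021), which was at 14.93 and 15.48 in controls 3 and 4, 12.96 in control 2 and between 11.49 and 11.86 in the others. Without run in the fit none passed a BH-adjusted p of 0.05 (limma; *mt-Nd2* -2.20, adjusted p = 0.0837; *mt-Nd6* -1.75, adjusted p = 0.115), and with it 1 did, *mt-Atp8*, which was at 16.38 in control 2 and between 10.04 and 11.79 elsewhere.

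**Figure D5:**
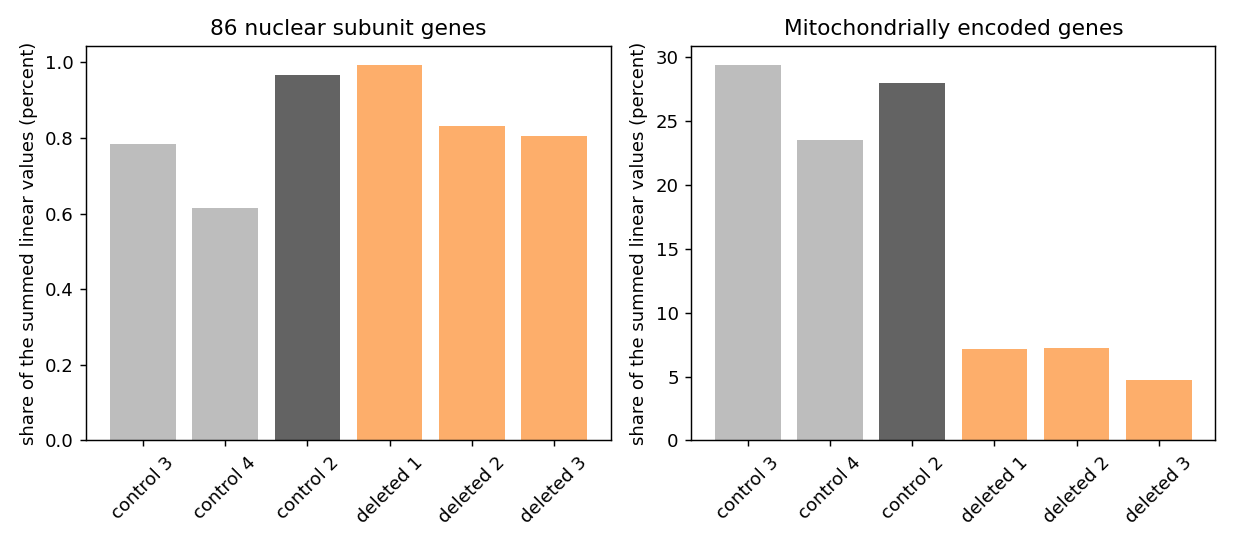
Share of the summed linear values (y axes, percent, both from 0) held by the 86 nuclear subunit genes (left) and by the mitochondrially encoded genes (right) in each library (x axes), first-run controls in light grey, control 2 in dark grey and libraries labelled Hsp47-deleted in orange. On the left, control 2 (0.968%) lies between deleted 1 (0.994%) and deleted 2 (0.831%), and control 3 (0.784%) is close below deleted 3 (0.806%). On the right, control 2 (28.0%) lies between controls 3 and 4, with *mt-Atp8* high in control 2 alone. The left bars rest in part on *Atp5b*, and both shares are parts of 1 total.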

How the data were processed

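The 6 RNA-seq libraries of EGFP+ cells (3 control, 3 labelled Hsp47-deleted) were analysed. The study's methods do not give the number of mice per library. RNA was amplified before library construction, and the submitters' processing notes name kallisto and mm10. The authors deposited log2(value + 1) per gene and library, with an unnamed linear unit, beside their group means and their own comparison (folds, p-values and adjusted p-values), which were not used. Because fractions occur once the log2 is undone, no count model was used, and with depth unknown no counting interval is given.

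The test covered 15109 genes whose linear values averaged 1 or more (13878 were left out), and used limma 3.58.1 under R 4.3.3 (lmFit, eBayes with a mean-variance trend), two-sided, with no covariate and Benjamini-Hochberg (BH) adjustment over all tested genes. Fold changes are differences on the log2(value + 1) scale and understate changes of low genes. With 3 against 3, an exact permutation p cannot go below 0.1. A fit with label and run gave run differences. Isoform ratios were tested by exact permutation. The limma step was tested on simulated data. Gene positions, lengths and GC content came from GENCODE M21 (GRCm38), which held all 86 members, and near-identical copies were sought with minimap2 2.31-r1302.

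Members, lists and tests were chosen with earlier results of these data known. Named members are those passing adjustment, the 4 smallest p-values in complexes I, III, IV and V, all of complex II and cytochrome c, isoform pairs, the 5 highest means and non-overlapping members changed at least 2-fold, with the 2 smallest p-values of each context list (1 gene this rule selects is not reported here); others were named after their values were seen. Alternatives were run as a covariate, the second run alone, a block on replicate number, no filter or a stricter one (mean 5 or more), a pseudocount of 0.1 or 5, quantile normalization, median centring, rescaling without mitochondrially encoded genes, no trend, robust estimation, removal of GC and length trends, each library left out, and, added after the data were seen, copies summed.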

Additional observations from a re-analysis of the deposited data

How the results depend on the processing

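The 17 members with an unadjusted p under 0.05 became 1 with sequencing run as a covariate, 3 with the replicate number as a block, 7 without a filter, 4 with quantile normalization, 4 with median centring and 3 when rescaled without mitochondrially encoded genes, and 3 to 63 when 1 library was left out. The 0 members past adjustment became 0 to 48 on leaving out 1 library (48 without control 2), and the 10 members without overlap became 4, 6 and 4 under quantile normalization, centring and rescaling and 10 to 71 on leaving out 1 library. The member median of 1.01 turned to -0.16 with run as a covariate or in the second run alone, and its difference from all tested genes from 0.66 to -0.45. The replicate numbers share only a number: deviations correlated at 0.156 and 0.228 for numbers 2 and 3, and the block left 1 residual degree of freedom, gave a member median of 0.51 with all tested genes at 0.41, changed the sign at 6 of 83 tested members, *Cox4i2* (-0.35) among them, and moved no call past adjustment. Run as a covariate, or the second run alone, also reversed the medians of complexes I (-0.22), II (-0.18), IV (-0.13) and V (-0.11), and *Atp5b* (0.37), *Atp5g1* (-0.12), *Atp5l* (-0.45), *Cox4i2* (-0.24), *Cox6a1* (-0.54), *Cox6a2* (-0.51), *Cox6b1* (-0.14), *Cox6b2* (-0.62), *Cox7a1* (-0.36), *Cox7a2* (-0.12), *Cox8b* (-0.66), *Ndufa4l2* (-0.46), *Ndufb11* (-0.019), *Sdhb* (-0.20), *Sdhc* (-0.16), *Sdhd* (-0.49), *2010107E04Rik* (-0.089) and *Ndufab1* (-0.032). In the second run alone the ratios *Cox6a2*/*Cox6a1* (0.027), *Cox7a1*/*Cox7a2* (-0.24), *Cox8b*/*Cox8a* (-0.79), *Ndufa4l2*/*Ndufa4* (-0.66) and *Atp5g1*/*Atp5g3* (-0.12) reversed as well. Quantile normalization, centring and rescaling changed the sign at 11, 12 and 13 of 83 tested members, among them *Cycs*, the only cytochrome c gene (-0.18 with quantile normalization, -0.23 with centring, -0.28 rescaled) and *Atp5g3* (-0.00087, -0.032 and -0.099). Rescaling also reversed *Ndufab1*, outside the symbol rule (-0.00943), and copies summed reversed *Cycs* (-0.25) and *Ndufa12* (-2.06). The pseudocount reversed *Cox6a2*/*Cox6a1* (0.019) and *Cox6b2*/*Cox6b1* (0.76) at 0.1, and *Cox7a1*/*Cox7a2* (-0.25), *Cox8b*/*Cox8a* (-0.58) and *Ndufa4l2*/*Ndufa4* (-0.25) at 5. Leaving out 1 library gave ranges that crossed zero for *Atp5j* (-0.60 to 0.72), *Cox4i2* (-0.14 to 0.97), *Cox6a2*/*Cox6a1* (-0.53 to 0.13), *Cox7a1*/*Cox7a2* (-0.34 to 0.44), *Cox8b*/*Cox8a* (-0.85 to 0.50) and *Ndufa4l2*/*Ndufa4* (-0.26 to 0.54). The cause was not tested in any of these cases. Both other filters, both pseudocounts, no trend and robust estimation changed no sign among the tested members' label differences. Depth is unknown, all libraries but control 2 leave run and label inseparable, and 3 against 3 limits every single-gene test.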
